A study of Mus musculus with 5 samples.

Results

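Fibronectin, the tenascins, periostin and their linked glycoproteins are secreted proteins that lie between collagen fibrils and the cells of connective tissue. Fibronectin (Fn1) is assembled by integrins into fibrils on which other matrix proteins settle. Tenascin-C (Tnc) and tenascin-W (Tnn) are adhesion-modulating glycoproteins typical of growing and healing skeletal tissue, whereas tenascin-X (Tnxb) binds collagen fibrils in mature connective tissue. Periostin (Postn) and Tgfbi, a protein named for its induction by TGF-beta, share fasciclin domains and bind integrins and collagen, and periostin also binds fibronectin and tenascin-C. Fndc1 carries fibronectin type III domains, and dermatopontin (Dpt) binds decorin and collagen. The temporomandibular joint (TMJ) disc, a plate of fibrocartilage that cushions the jaw joint, is made by stromal cells and is bordered by the synovial lining, the cell layer that secretes lubricin.

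These 8 genes were chosen by symbol out of the 27998 genes that each library lists, with earlier results of these data known. No measured value entered the rule itself, and all 8 genes were found. Their unique molecular identifiers (UMIs), each of which marks 1 captured transcript, were summed over the stromal cells and over the synovial lining cells of a library. The sums are given as CPM, the counts per 1000000 UMIs of those cells. Single-cell libraries were made from wild-type C57BL/6 mice, 1 library per condition. The normal discs came from untreated mice of 3 d (both sexes), and of 3 w, 16 w and 78 w (males). The submitters' naming of the 78 w data reads as 16 months, and the labelled 78 weeks is used here. The injured discs are labelled as wild-type C57BL/6 discs of mice 7 weeks old in an injury model. The study's methods place the injury at 5 weeks of age, which puts collection 2 weeks later, and describe it in Myh11-CreER; Tm fl/- mice, in which tamoxifen switches on a reporter in mural cells. The methods do not say whether the sequenced discs came from those mice. They place the transgene on the Y chromosome, and only males were used for the tracing. In the injured library the Y-linked genes Ddx3y, Eif2s3y and Kdm5d had 0 UMIs and Uty had 1 UMI. The sequenced cells thus lacked the pattern of male carriers of a Y-linked transgene. The genotype itself was not tested. There was no uninjured library of the same age, so the injured discs are set beside 3 w and 16 w.

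With 1 library per condition, no difference has a replicate check and no test was made. Intervals are exact 95% intervals from the numbers of UMIs or cells and cover counting error only. Stromal cells numbered between 6854 and 10651 per library with 27912618 to 112964153 UMIs, and lining cells between 52 and 237. The injured library was the shallowest, with a median of 3299 UMIs per cell against 7721 to 12496 in the others. Its cells also held Gm26870 at 10716 CPM and Gm10800 at 438 CPM, against 21.7 to 625 CPM and 0.864 to 6.98 CPM in the others. The part of this difference in the ratios was not tested. It also stood apart in sex: Xist was at 644 CPM and the Y-linked genes Ddx3y, Eif2s3y, Uty and Kdm5d together had 1 UMI, while Xist was at no more than 0.337 CPM at 3 w, 16 w and 78 w. Injury, sex, age, depth and the other traits of that library therefore cannot be told apart in any comparison with the injured library. The 3 d library, of both sexes, had Xist at 874 CPM and Ddx3y at 29.9 CPM. Ddx3y was at 116 to 148 CPM in the male libraries of 3 w, 16 w and 78 w. Age and sex therefore cannot be told apart in any comparison with 3 d, in the stroma or in the lining. Libraries shared between 19 and 39 barcodes by pairs.

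The class names were given from marker genes, so the same markers describe the classes and are no check on the names. All 10 stromal markers were detected in the stromal cells of every library, and in the lining cells too. Of the 3 stromal clusters, clusters 1 and 2 held more cartilage markers than stromal markers among their 10 leading genes, and clusters are therefore called by number and by leading genes. The lining cluster was led by Clic5, F13a1, Calb2 and Prg4. Of its 10 leading genes 4 were lining markers, where the name asked for at least 3. The 9 lining markers summed to between 54542 and 108475 CPM in the lining cells of the other 4 libraries and to 6995 CPM at 3 d, so the cells grouped as lining at 3 d carried much less of the lubricin gene Prg4 (2382 CPM against 49563 to 101067 CPM). In stromal cells the same 9 markers summed to 304 CPM at 3 d, of which Prg4 made 120 CPM. They summed to between 3161 and 12635 CPM in the other libraries, nearly all of it Prg4. Macrophage markers summed to at most 69.0 CPM in stromal cells, in the injured library, and erythroid markers to between 2.88 and 2802 CPM, highest at 3 d. Endothelial markers summed to between 42.6 and 113 CPM and mural markers to between 68.7 and 348 CPM, the latter highest at 3 d.

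Fn1 (chromosome 1, 71585520 to 71653200, minus strand, GRCm38) was at 818 CPM in stromal cells at 3 d, 1657 CPM at 3 w, 1830.2 CPM at 16 w, 4002 CPM at 78 w and 3038 CPM in the injured discs. The lowest level was at 3 d and the highest at 78 w, and the 3 w and 16 w levels lay close together. Fn1 was 2.03-fold higher at 3 w than at 3 d (95% interval 2.01 to 2.04), 1.10-fold higher at 16 w than at 3 w (1.10 to 1.11) and 2.19-fold higher at 78 w than at 16 w (2.17 to 2.20). At equal depth, with 1000 UMIs drawn at random from each cell, 49.9% of stromal cells at 3 d, 66.2% at 3 w, 63.3% at 16 w, 83.0% at 78 w and 81.8% in the injured library held an Fn1 UMI (95.4%, 98.0%, 97.0%, 99.3% and 95.9% before thinning). In endothelial cells, given for comparison and not as a measure of background, the thinned shares were 20.3%, 12.4%, 17.1%, 25.3% and 33.4% in the same order. The median depth before thinning was 1872 to 5759.5 UMIs there, against 3578.5 to 13233 UMIs in stromal cells.

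Lining cells held the highest Fn1 level of the cell classes, and the lining markers in stromal cells ran from 304 CPM at 3 d to 12635 CPM at 78 w, so the stromal level was also taken without them. Among thinned stromal cells without a UMI of any lining marker, Fn1 was at 763 CPM at 3 d, 1183 CPM at 3 w, 1031 CPM at 16 w, 2608 CPM at 78 w and 2737 CPM in the injured library. Most thinned cells qualified at 3 d (9051 out of 10613), but few did so later: 2535 out of 7923 for 3 w, 1002 out of 7694 for 16 w, 543 out of 8390 for 78 w and 1679 out of 6544 for the injured library. At 78 w the cells that qualified had Dpt at 621 CPM and Postn at 49.7 CPM, against 275 and 14.7 CPM in all thinned stromal cells. The qualifying cells are therefore a selected part of the stroma, and not the whole of it cleared of lining transcripts. In these cells the ratio of 3 w to 3 d was 1.55 and the ratio of 78 w to 16 w was 2.53. The order of the normal libraries was then 3 d, 16 w, 3 w and 78 w, with the lowest and the highest level as before.

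**Figure D1:**
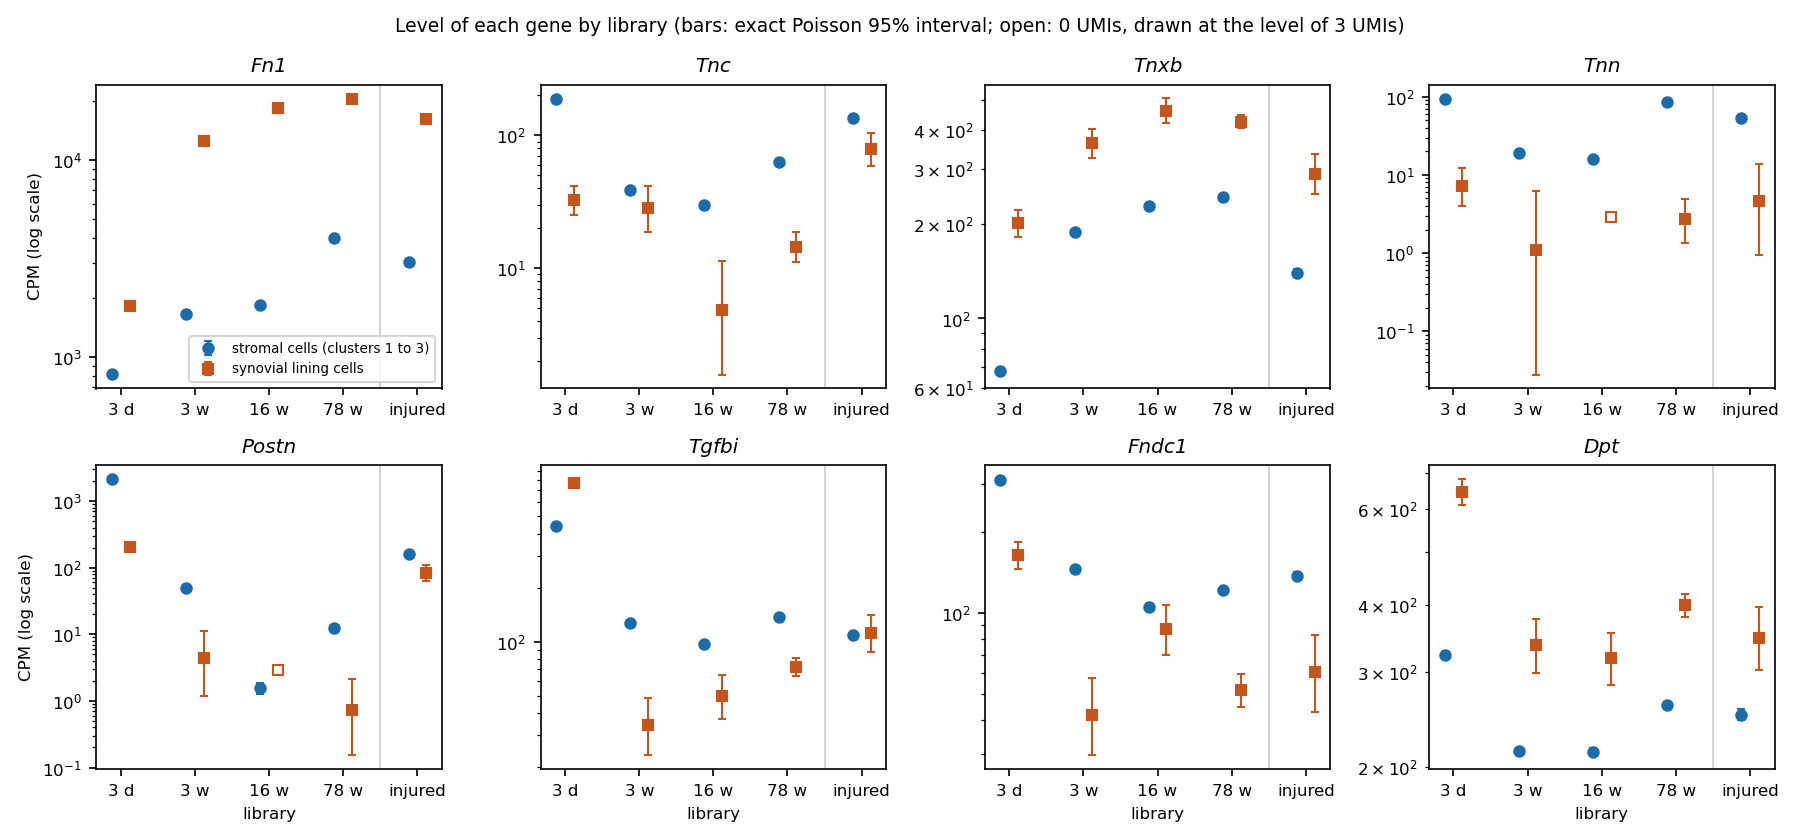
Levels of the 8 genes in each library (CPM, log axis), in stromal cells and in synovial lining cells, with exact Poisson 95% intervals as bars and open symbols for 0 UMIs, drawn at the level of 3 UMIs. Stromal Fn1 runs from 818 CPM at 3 d to 4002 CPM at 78 w, while stromal Postn is at 2144 CPM at 3 d and 1.54 CPM at 16 w.

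Tnc (chromosome 4, 63959785 to 64047015, minus strand) was at 187 CPM in stromal cells at 3 d, 39.1 CPM at 3 w, 30.2 CPM at 16 w, 62.6 CPM at 78 w and 134 CPM in the injured discs. The 3 d level was the highest and the 16 w level the lowest, and the injured level lay between 3 d and 78 w. Tnc at 3 w was 4.79-fold below 3 d (4.64 to 4.95), and the gene was 2.08-fold higher at 78 w than at 16 w (1.98 to 2.18). Of stromal cells thinned to 1000 UMIs, 16.2% held a Tnc UMI at 3 d, 3.23% at 3 w, 2.76% at 16 w, 5.30% at 78 w and between 10.2% and 11.7% (95% interval) in the injured library (55.9%, 25.5%, 15.6%, 24.1% and 27.8% before thinning). The thinned shares of endothelial cells were lower in each library, from 0.360% at 16 w to 4.70% at 3 d.

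Tnn (chromosome 1, 160085029 to 160153580, minus strand) was at 93.2 CPM at 3 d, 19.2 CPM at 3 w, 16.1 CPM at 16 w, 84.2 CPM at 78 w and 52.7 CPM in the injured discs. Tnn thus had its highest levels at both ends of the age range. Its level at 3 w was 4.86-fold below 3 d (4.64 to 5.10), and the gene was 5.24-fold higher at 78 w than at 16 w (4.94 to 5.56), and 78 w and 3 d differed by a ratio of 0.903 (0.876 to 0.931).

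Tnxb (chromosome 17, 34670535 to 34719815, plus strand) was at 67.7 CPM at 3 d, 189 CPM at 3 w, 228 CPM at 16 w, 245 CPM at 78 w and 140 CPM in the injured discs. Among the tenascins it alone was lowest at 3 d. It was 2.79-fold higher at 3 w than at 3 d (2.72 to 2.87), and after 3 w each step between ages was 1.21-fold or less. The level in the injured discs was below those of 3 w and 16 w, with ratios of 0.739 (0.714 to 0.765) and 0.612 (0.591 to 0.633).

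Postn (chromosome 3, 54361109 to 54391037, plus strand) spanned the widest range of the 8 genes. It was at 2144 CPM at 3 d, 49.4 CPM at 3 w, 1.54 CPM at 16 w (124 UMIs), 12.6 CPM at 78 w and 159 CPM in the injured discs. Postn at 3 w was 43.4-fold below 3 d (42.3 to 44.6), and a further 32.1-fold lower at 16 w than at 3 w (26.8 to 38.6). At 78 w it was 8.17-fold higher than at 16 w (6.78 to 9.91), still 170.5-fold below 3 d (161 to 181). The 78 w to 16 w ratio depended on the processing. It was 1.54 when cells were clustered without integration of the libraries, which put 1456 cells of 16 w and 2084 of 78 w in the lining. After thinning it was 18.8 (8.39 to 52.2), on 123 and 6 UMIs. In thinned stromal cells without a lining-marker UMI it was 49.8 (8.21 to 2039.9), on 27 UMIs at 78 w and 1 UMI at 16 w. Of thinned stromal cells, 71.2% held a Postn UMI at 3 d, 3.80% at 3 w, 0.0650% at 16 w, 0.787% at 78 w and 8.92% in the injured library (95.9%, 15.7%, 0.714%, 2.12% and 16.6% before thinning). At 3 d 20.2% of thinned endothelial cells held one too, against 0.541% at 3 w and 0.155% at 78 w.

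Tgfbi (chromosome 13, 56609523 to 56639562, plus strand), the other fasciclin protein, was at 444 CPM at 3 d, 128 CPM at 3 w, 97.2 CPM at 16 w, 137 CPM at 78 w and 109 CPM in the injured discs. Its level at 3 w was 3.48-fold below 3 d (3.42 to 3.55), and the gene was 1.41-fold higher at 78 w than at 16 w (1.37 to 1.45). The level at 3 d stood apart, and the other 4 libraries lay within 1.41-fold of each other.

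Fndc1 (chromosome 17, 7738569 to 7827302, minus strand) was at 311 CPM at 3 d, 145 CPM at 3 w, 106 CPM at 16 w, 121 CPM at 78 w and 137 CPM in the injured discs. Its level at 3 w was 2.14-fold below that of 3 d (2.10 to 2.18). Dpt (chromosome 1, 164796644 to 164824266, plus strand) was at 322 CPM at 3 d, 215 CPM at 3 w, 213 CPM at 16 w, 261 CPM at 78 w and 250.1 CPM in the injured discs. Its levels differed least among the 8 genes, and no step between ages passed 2-fold: the largest was the ratio of 0.665 between 3 w and 3 d (0.654 to 0.677).

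Tnc, Tnn and Postn were each high at 3 d, low at 3 w and 16 w and higher again in the injured discs, so the sequences before their start sites are shown. They come from the RefSeq promoter windows of GRCm38.p6, which held an entry for 7 of the 8 genes, not for Fn1. Tnc and Postn had 2 entries each. Only the entry nearest to the start of the gene in the GENCODE annotation was searched and is shown. Each stretch of 250 bases is written 5′ to 3′ on the strand of the gene and ends at the base before the annotated start, and capitals mark the letters TATAAA or, in Tnn, CCAAT on the opposite strand.

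Tnc, chr4:64047016-64047265, minus strand: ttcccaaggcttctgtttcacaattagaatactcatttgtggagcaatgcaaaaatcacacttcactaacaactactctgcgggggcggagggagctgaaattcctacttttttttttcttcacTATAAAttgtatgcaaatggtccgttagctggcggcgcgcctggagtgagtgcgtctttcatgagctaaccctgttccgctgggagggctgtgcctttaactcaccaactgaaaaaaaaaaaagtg
Tnn, chr1:160153576-160153825, minus strand: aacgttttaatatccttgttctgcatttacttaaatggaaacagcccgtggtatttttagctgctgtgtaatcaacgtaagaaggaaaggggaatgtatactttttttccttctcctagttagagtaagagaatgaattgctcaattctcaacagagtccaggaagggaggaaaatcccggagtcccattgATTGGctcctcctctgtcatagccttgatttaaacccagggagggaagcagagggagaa
Postn, chr3:54360857-54361106, plus strand: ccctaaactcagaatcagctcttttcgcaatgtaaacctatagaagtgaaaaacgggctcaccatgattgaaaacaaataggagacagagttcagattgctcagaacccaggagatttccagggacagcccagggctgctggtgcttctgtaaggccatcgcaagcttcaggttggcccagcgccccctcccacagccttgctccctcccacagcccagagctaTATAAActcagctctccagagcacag

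TATAAA lay 26 bases before the Postn start and 126 bases before the Tnc start. The Tnc window lies inside the antisense gene 8030451A03Rik and outside annotated exons, the Postn window overlaps no annotated gene, and the Tnn window overlaps the first exon of a GENCODE model of Tnn itself. TATAAA occurs on either strand in 12.3% of the 32536 promoter windows of this length. All 3 motifs were searched on both strands. CCAAT, found in 33.8% of windows, was matched on the opposite strand 59 bases before the Tnn start, and TGANTCA, found in 6.73%, was matched 55 bases before the Tnxb start. The Tgfbi and Dpt windows held none of these 3 motifs, and Fndc1 had TATAAA on the opposite strand 219 bases before its start.

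Set against all genes, the members moved more often than most in some steps and about as often in others. The list was chosen with earlier results of these data known, so the shares set beside it are a description only. A ratio is read here as past 2-fold, with no test, among genes with at least 100 UMIs over both libraries. Between 3 d and 3 w, 7 of the 8 members were past 2-fold in stromal cells, against 35.0% of 13469 genes, with Fn1 and Tnxb higher and Tnc, Tnn, Postn, Tgfbi and Fndc1 lower at 3 w. The members' median ratio was 0.377 and that of all genes 0.976. Between 3 w and 16 w, Postn alone was past 2-fold, against 11.3% of all genes, and the medians were 0.805 and 0.941. Between 16 w and 78 w, 4 of the 8 members (Fn1, Tnc, Tnn and Postn) were past 2-fold, all higher at 78 w, against 3.66% of 12653 genes. The members' median ratio was 1.74 and that of all genes 0.958. Over the whole range from 3 d to 78 w, 6 of 8 members were past 2-fold, against 34.9% of all genes, with Fn1 4.89-fold (4.85 to 4.93) and Tnxb 3.62-fold (3.52 to 3.72) higher and Tnc, Postn, Tgfbi and Fndc1 lower. The medians over this range were 0.599 for the members and 0.900 for all genes.

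The injured discs were compared with the nearest ages on either side. Against 3 w, 3 of 8 members were past 2-fold in stromal cells, all higher in the injured discs, against 22.4% of 12435 genes: Tnc by 3.43-fold (3.29 to 3.59), Tnn by 2.75-fold (2.57 to 2.94) and Postn by 3.22-fold (3.09 to 3.35). Against 16 w, 3 members were past 2-fold, against 20.1% of all genes: Tnc by 4.45-fold (4.23 to 4.69), Tnn by 3.28-fold (3.04 to 3.54) and Postn by 103-fold (86.2 to 124). Both comparisons share the injured library. Fn1 was 1.83-fold (1.82 to 1.85) and 1.66-fold (1.65 to 1.67) higher than at 3 w and 16 w. Dpt was 1.17-fold higher in both comparisons.

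The scale mattered for the injured library. On the CPM scale the median ratio of all genes was 0.804 against 3 w and 0.828 against 16 w, and 26.7% and 31.8% of the genes past 2-fold were higher in the injured discs. After TMM scaling, which sets the library sizes so that most genes keep their level, the medians were 0.986 and 0.967 and the shares were 52.6% and 53.7%. Under TMM the ratios to 3 w were 4.21 for Tnc, 3.37 for Tnn, 3.94 for Postn and 2.25 for Fn1, so Fn1 then passed 2-fold against 3 w. Tgfbi (0.854 by CPM and 1.05 under TMM) and Fndc1 (0.941 and 1.15) turned direction against 3 w, and Tnxb was lower than at 3 w and 16 w on both scales (0.906 and 0.715 under TMM). Among the normal libraries TMM moved the median of all genes by over 0.1 on the log2 scale only between 3 d and 78 w (from 0.900 to 0.984 in stroma and from 0.907 to 0.987 in the lining), and no member changed direction there.

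**Figure D2:**
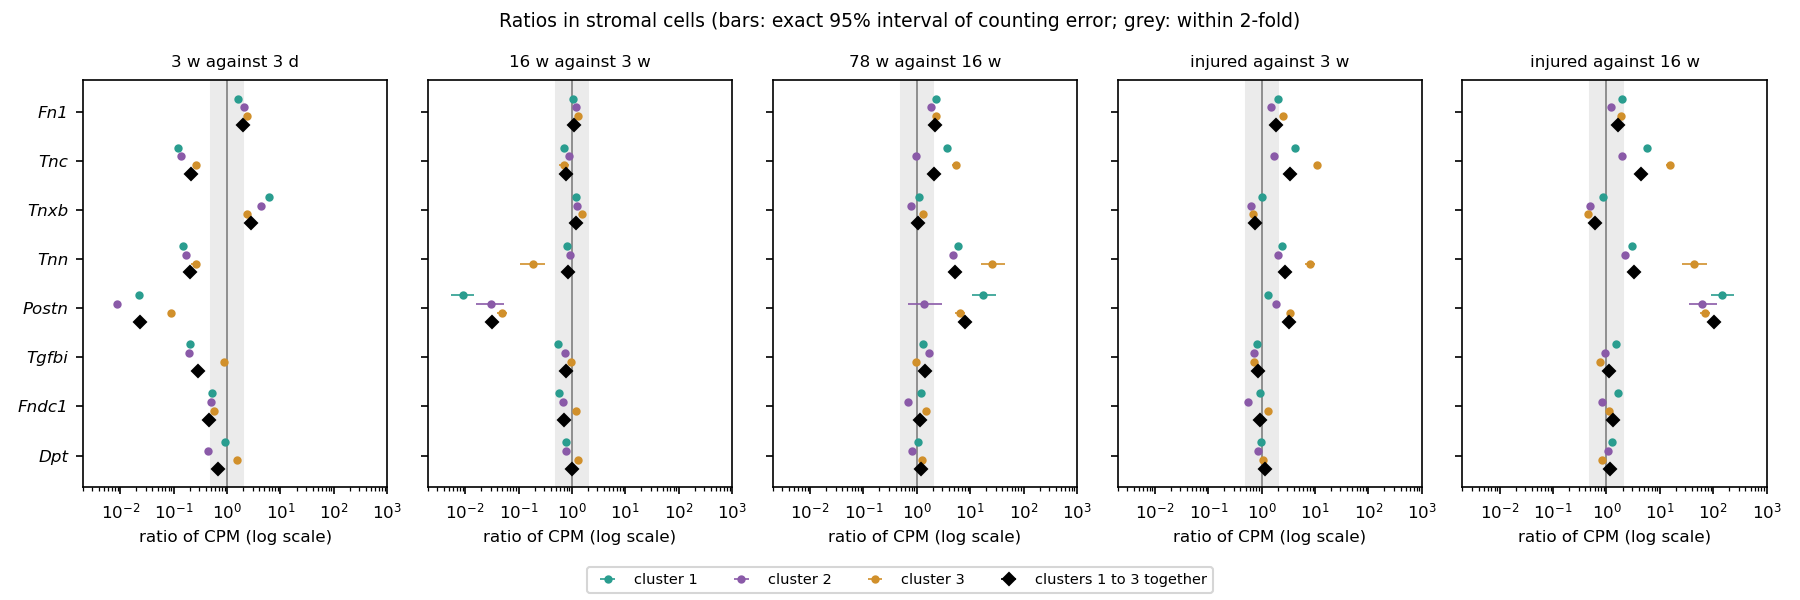
Ratio of the CPM of each gene between libraries (log axis) in the 3 stromal clusters together (black) and in each of them (colours), with exact 95% intervals as bars, grey marking the range within 2-fold. For the clusters together, Tnc, Tnn and Postn lie below the grey range at 3 w against 3 d and above it at 78 w against 16 w and in the injured discs.

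The makeup of the stroma differed between libraries: cluster 3 of the main clustering, led by Pi16, Clec3b, Mfap5 and Eln, held 4697 of 10651 stromal cells at 3 d and between 1167 and 1484 in each other library. With equal weight for the 3 clusters, the ratios past 2-fold named above kept their direction, but Fndc1 came within 2-fold at 3 w (0.537) and at 78 w (0.576) against 3 d. In cluster 3 alone, Fn1, Tnxb and Dpt were past 2-fold higher at 78 w than at 3 d, and Postn was past 2-fold lower. The share of all genes past 2-fold in that cluster was not taken, so these are values of single genes. There Tnc was at 74.1 CPM at 78 w and 73.8 CPM at 3 d, and Fndc1 at 347 and 344 CPM. The lower levels of Tnc and Fndc1 in the whole stroma were thus not seen in that cluster. Tgfbi, at 336 and 400.4 CPM, was lower at 78 w there too, but within 2-fold. The main clusters did not move alike. Tnc at 78 w was 3.67-fold above 16 w in cluster 1 (3.40 to 3.95; led by Myoc, Cilp2 and Chad) and 5.35-fold above it in cluster 3 (4.49 to 6.42), while in cluster 2 (led by Cytl1, Lcn2 and Cilp2) the ratio was 0.984 (0.917 to 1.06). Tnc in the injured discs was 9.62-fold to 12.5-fold (95% interval) above 3 w in cluster 3, 4.20-fold in cluster 1 (3.91 to 4.50) and 1.71-fold in cluster 2 (1.58 to 1.85). Fn1 at 78 w was above 16 w in each of them, by 1.83-fold to 2.32-fold.

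Within the stroma the members were also read in clusters of a finer resolution, which have numbers of their own, and each library had 8 of them with at least 50 cells. Postn in the injured discs was at 542 CPM in cluster 5 (led by Clec3b, Pi16 and Mfap5), 672 CPM in cluster 6 (led by Pi16, Clec3b and Il6) and 378 CPM in cluster 8 (led by Coch, C1qtnf3 and Tnmd), but at 18.6 to 51.2 CPM in clusters 1, 2, 3 and 10. At 78 w it was at 186 CPM in cluster 8, 57.3 CPM in cluster 5 and at most 16.2 CPM elsewhere. Postn was lower at 16 w than at 3 w in 8 of 8 clusters and higher in the injured discs than at 3 w in 8 of 8, by 1.56-fold to 5.66-fold. The level of each cluster is a description of cells from 1 library.

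The tenascins were spread differently. Tnn was highest in cluster 8 at 3 d (237 CPM), 3 w (35.5 CPM), 78 w (228 CPM) and in the injured discs (128 CPM), and it was higher at 78 w than at 16 w in 8 of 8 clusters, by at least 3.91-fold. Tnc at 3 d was highest in cluster 1 (404 CPM; led by Cytl1, Chad and Clu), whereas at 78 w and in the injured discs it was highest in cluster 5 (204 CPM and 331 CPM). It was higher in the injured discs than at 3 w in 8 of 8 clusters, by 1.09-fold to 8.42-fold. The lowest ratio was in cluster 10, where the intervals overlapped (56.3 CPM, 45.0 to 69.5, against 51.4 CPM, 46.3 to 56.8). Tnxb was highest in cluster 6 in every library, from 145 CPM at 3 d to 594 CPM at 78 w, and was past 2-fold higher at 3 w than at 3 d in 7 of the 7 clusters that had enough cells at both ages.

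Fn1 was highest in cluster 5 at 3 w (2690 CPM), 16 w (3322 CPM), 78 w (7476 CPM) and in the injured discs (5658 CPM), and in cluster 3 (led by Aoc2 and Cilp2) at 3 d (1532 CPM). It was higher at 78 w than at 16 w in 8 of 8 clusters, by 1.59-fold to 3.17-fold. Tgfbi was lower at 3 w than at 3 d in 6 of 7 clusters, and in cluster 6 it was higher, at 480 CPM against 231 CPM. Fndc1 was lower at 3 w than at 3 d in 7 of 7 clusters. Dpt went opposite ways: in cluster 6 it was at 441 CPM at 3 d, 879 CPM at 3 w, 1089 CPM at 16 w and 1328 CPM at 78 w, and in cluster 3 at 554 CPM at 3 d and between 63.7 and 78.5 CPM at the later ages. The nearly level Dpt of the whole stroma was thus the sum of clusters that differed by up to 29.3-fold at 78 w.

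**Figure D3:**
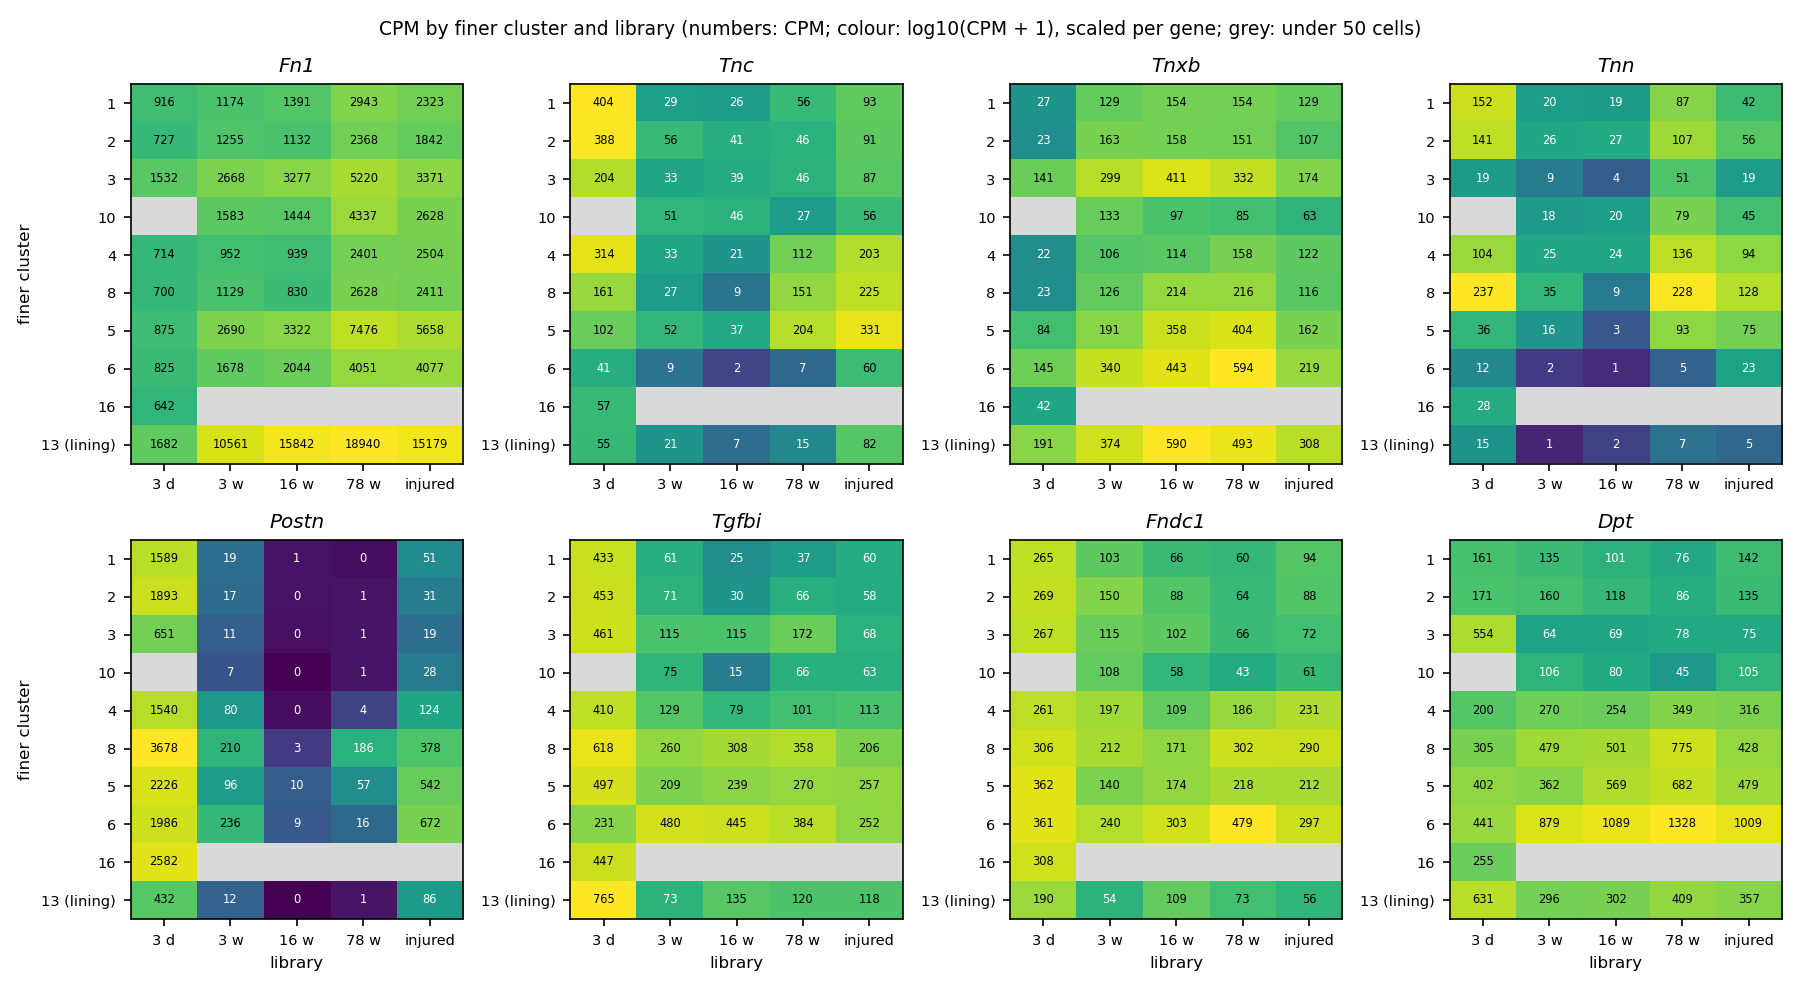
Level of each gene (numbers, CPM; colour, log10(CPM + 1), scaled per gene) in each finer cluster (rows) and library (columns), with cluster 13 as the lining and grey where a cluster had under 50 cells. In the Postn panel the 16 w column holds at most 10.4 CPM, and in the Dpt panel cluster 6 is highest from 3 w on.

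In the synovial lining cells Fn1 was at 1803 CPM at 3 d, 12439 CPM at 3 w, 18331 CPM at 16 w, 20406 CPM at 78 w and 16098 CPM in the injured discs. The lining was above the stroma in each library, by 2.20-fold at 3 d (2.13 to 2.28), 7.50-fold at 3 w (7.36 to 7.65), 10.0-fold at 16 w (9.86 to 10.2), 5.10-fold at 78 w (5.06 to 5.14) and 5.30-fold in the injured discs (5.19 to 5.41). Over the mean of the 4 normal libraries, 4 of the 8 members were past 2-fold between lining and stroma, against 28.2% of 14256 genes, with Fn1 6.38-fold higher and Tnc (ratio 0.253), Tnn (0.0521) and Postn (0.0955) lower in the lining. The Tnn ratio became 0.729 after thinning, which left 1 Tnn UMI in the lining cells at 3 d and 0 at 3 w, 16 w and 78 w, so that the limit of 3 counts sets the ratio. In the injured discs 4 members were past 2-fold, against 16.0% of all genes. Fn1 and Tnxb (2.08-fold) were higher in the lining, and Tnn and Fndc1 (ratio 0.441) were lower. Tnn rested there on 3 UMIs in the lining cells (4.64 CPM), the same level as the limit of 3 counts. It reached the minimum of UMIs through its stromal UMIs. Its ratio was 0.0881 (0.0181 to 0.258), an interval that covers counting error only.

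Of the other members in the lining, Tnc, Tnn and, after 3 d, Postn were measured on few UMIs. Tnxb had between 188 and 1727 UMIs per library and Dpt between 224 and 1616. Tgfbi had 1484 UMIs at 3 d and between 31 and 292 in the later libraries, and Fndc1 had 315 and between 38 and 209. Tnxb was at 201, 363, 463, 426 and 291 CPM in the order 3 d, 3 w, 16 w, 78 w and injured, and Dpt at 646, 336, 318, 399 and 347 CPM. Tnxb and Dpt were above the stromal level in each library. Tgfbi was at 771 CPM at 3 d and at 34.1, 49.7, 72.1 and 111 CPM in the later libraries. Fndc1 was at 164 CPM at 3 d and between 41.8 and 86.8 CPM after it. Tnc had 63, 26, 5, 59 and 51 UMIs in the 5 libraries, Postn 396, 4, 0, 3 and 54, and Tnn 14, 1, 0, 11 and 3. The 0 UMIs of Postn and Tnn at 16 w allow a level of up to 2.93 CPM by the limit of 3 counts, and the exact interval reaches 3.60 CPM. Postn in the lining at 3 d (206 CPM) was below its level in endothelial cells (478 CPM) and macrophages (549 CPM) of the same library. It was above its level in erythroid cells (102 CPM), and the part of background in it was not tested. Tnc in the lining at 3 d (32.7 CPM) was likewise below its endothelial level (61.3 CPM).

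Of the members with at least 100 UMIs in both lining samples together, 4 of 6 were past 2-fold at 3 w against 3 d, with Fn1 6.90-fold higher (6.64 to 7.17) and Postn, Tgfbi and Fndc1 lower, against 18.7% of 3962 genes. Postn is counted there, and from 3 d to 78 w with Tnc, although the part of background in their 3 d levels was not tested. At 16 w against 3 w it was 1 of 4 (Fndc1, on 38 and 89 UMIs) against 6.22%, and at 78 w against 16 w none of 5 against 2.05%. Over the range from 3 d to 78 w it was 6 of 7 against 17.1% of all genes, with Fn1 11.3-fold (10.9 to 11.7) and Tnxb 2.12-fold (1.89 to 2.37) higher and Tnc, Postn, Tgfbi and Fndc1 lower. The members' median was 0.445 and that of all genes 0.907. The part that the low Prg4 of the lining cells at 3 d has in these ratios was not tested.

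In the injured lining, Tgfbi was past 2-fold as 1 of 4 members measured against 3 w and as 1 of 5 against 16 w, beside 19.8% and 15.3% of all genes. It was 3.26-fold higher than at 3 w (2.11 to 5.15) and 2.24-fold higher than at 16 w (1.54 to 3.27), on 72, 31 and 51 UMIs in the injured, 3 w and 16 w cells. Both ratios turned below 1 without integration of the libraries (0.747 and 0.385), and the second did so at the finer resolution (0.873). The lining cluster without integration was another set of cells, with 237 from the injured discs, 106 from 3 w and 1456 from 16 w. The 8 macrophage markers summed to 60.4 CPM in the injured lining cells, with Tyrobp at 24.8 CPM and Mrc1 at 0, and to 4.40 CPM at 3 w, 7.80 CPM at 16 w, 14.0 CPM at 3 d and 11.1 CPM at 78 w, with 7, 2, 4, 7 and 7 of them detected in that order. Erythroid markers summed to 1069 CPM in the injured lining, against 0 at 3 w and 3.90 CPM at 16 w. Their part in the Tgfbi ratios was not tested. Fn1 in the injured lining was 1.29-fold of the 3 w level (1.26 to 1.33) and 0.878 of the 16 w level (0.857 to 0.899), and the latter turned to 1.06 under TMM scaling. Of all genes past 2-fold in the lining, 40.1% and 34.8% were higher in the injured discs by CPM and 67.9% and 64.3% under TMM, which moved the median of all genes from 0.869 to 1.07 against 3 w and from 0.917 to 1.11 against 16 w.

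Outside the stroma and lining, Fn1 was at 302 to 1291 CPM in endothelial cells, 489 to 1149 CPM in mural cells and 265 to 1225 CPM in macrophages, and in each library below its stromal level. Postn was at 742 CPM in mural cells at 3 d, 187 CPM at 3 w, 109.7 CPM at 16 w, 106 CPM at 78 w and 181 CPM in the injured discs. Its mural level was above its stromal level at 3 w, 16 w and 78 w, and in the injured discs the mural interval (137 to 235 CPM) covered the stromal level. Tgfbi in macrophages was at 468, 505, 668, 717 and 356 CPM in the order of the libraries, above the stromal level in each. In erythroid cells, which should make none of these proteins, Fn1 was at 44.0 CPM at 3 d (339 cells), 537 CPM at 3 w (32 cells), 446 CPM at 16 w (4 cells), 250.4 CPM at 78 w (32 cells) and 1214 CPM in the injured discs (59 cells, 72 UMIs, 950 to 1529 CPM). In the injured library this interval covered the levels of Fn1 in macrophages (1225 CPM) and mural cells (1053 CPM), and the stromal level was 3038 CPM. Erythroid Postn was at 102 CPM at 3 d, on 160 UMIs, with 1 UMI at 3 w and 0 in the other libraries.

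**Figure D4:**
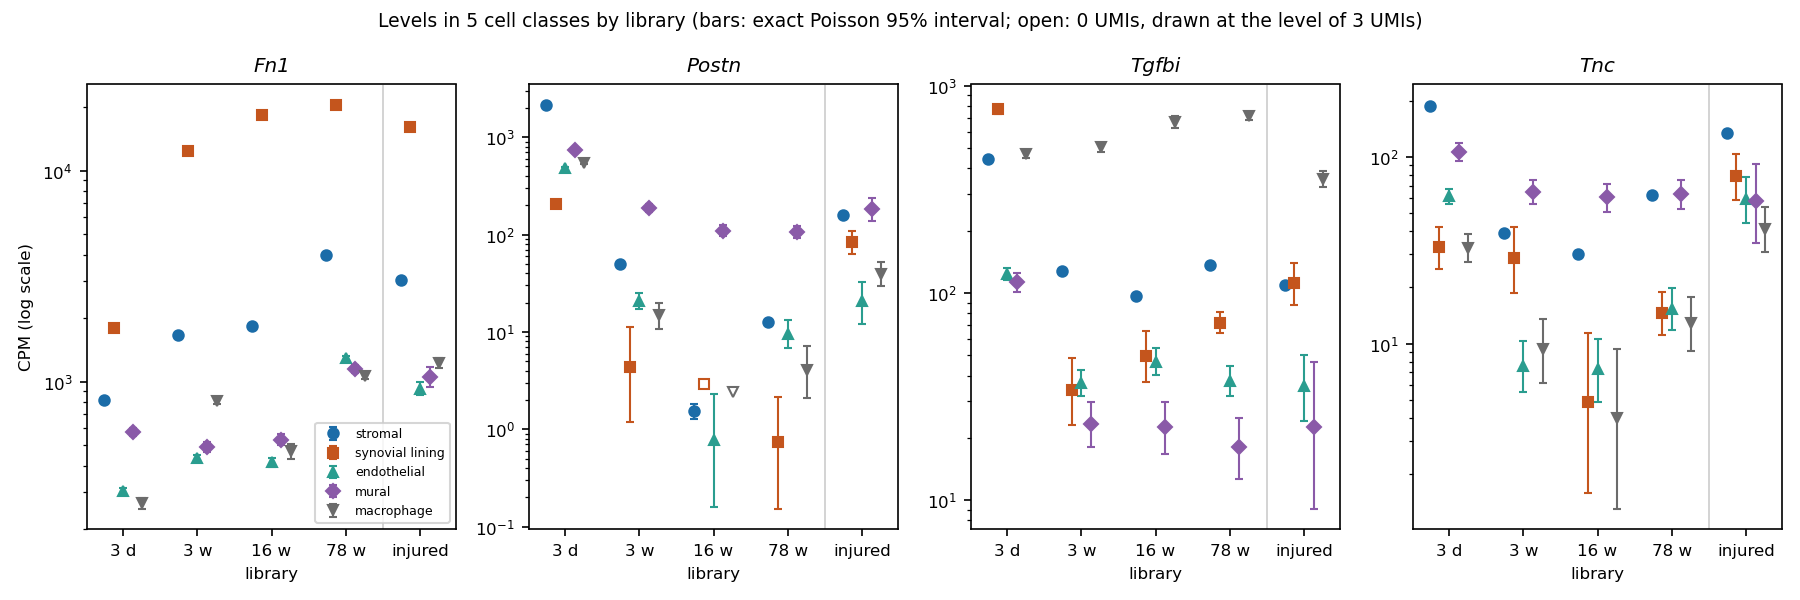
Levels of Fn1, Postn, Tgfbi and Tnc (CPM, log axis) in stromal, synovial lining, endothelial, mural and macrophage cells of each library, with exact Poisson 95% intervals as bars and open symbols for 0 UMIs, drawn at the level of 3 UMIs. Mural Postn lies above stromal Postn at 3 w, 16 w and 78 w, and Tgfbi lies highest in macrophages from 3 w on.

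The receptors of these proteins were listed as 14 integrin, syndecan and discoidin-domain receptor genes. Between 3 d and 3 w, 3 of the 13 measured receptors were past 2-fold higher and 4 lower in stromal cells, against 16.2% and 18.8% of all genes. Sdc4, a syndecan that binds fibronectin, was at 223 CPM at 3 d and 1766 CPM at 3 w, and Itgb3, the beta subunit of the vitronectin receptor, was at 9.93 and 0.513 CPM. Itga5 and Itgb1, the subunits of the classical fibronectin receptor, were at 58.3 and 389 CPM at 3 d, 75.7 and 237 CPM at 3 w, 112 and 289 CPM at 16 w, 118 and 288 CPM at 78 w and 89.3 and 278 CPM in the injured discs, and no neighbouring pair of ages differed by 2-fold for either. Between 16 w and 78 w, 1 of 12 receptors was past 2-fold (Itgb3, 2.32-fold higher, 1.33 and 3.08 CPM), against 2.17% of all genes higher and 1.49% lower. In the injured discs 2 of 12 were past 2-fold higher than at 3 w (Itgb3 and Itgav) and 3 lower (Itga8, Itga9 and Itgb8), against 5.98% and 16.4% of all genes, while none of the 11 measured was past 2-fold against 16 w. Itga5 was chosen for description as the fibronectin receptor after its values were seen, and so was Itgb1.

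The 16 binding partners and processing enzymes followed other courses. At 3 w, 6 were past 2-fold higher than at 3 d and 5 lower, against the same 16.2% and 18.8%, with Ctgf, a matricellular protein, at 2657 CPM at 3 w, 29.5-fold above 3 d, and Fmod, the collagen-binding fibromodulin, at 282 CPM at 3 d and 3946 CPM at 3 w. Tgm2, a transglutaminase that cross-links fibronectin, was at 6.24 and 54.1 CPM at these ages. Vcan, the hyaluronan-binding versican, was at 491 CPM at 3 d and 66.0 CPM at 3 w. At 16 w against 3 w, 4 were higher and 5 lower, against 5.56% and 5.74% of all genes. The largest change was that of Col1a1, a chain of type I collagen, which was lower at 16 w (934 CPM) than at 3 w (12941 CPM). At 78 w against 16 w, where 4 members were higher, only Thbs1 among the 16 was past 2-fold, at 226 CPM at 16 w and 46.8 CPM at 78 w. In the injured discs 4 partners were past 2-fold lower than at 3 w and none higher, against 16.4% and 5.98% of all genes, and against 16 w 4 were higher and 6 lower, against 6.39% and 13.7%. Col1a1 was at 24386 CPM there, 26.1-fold above 16 w, and Col3a1 was 7.25-fold above 16 w, whereas Thbs1 and Tgm2 were at ratios of 0.105 and 0.111.

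Of the 6 TGF-beta ligand and receptor genes, 2 (Tgfb1 and Tgfbr3) were past 2-fold higher at 3 w than at 3 d, against 16.2% of all genes. None was past 2-fold at 16 w against 3 w or at 78 w against 16 w. Tgfbr3 and Tgfbr1 were lower in the injured discs than at 16 w, at ratios of 0.421 and 0.493, beside the 13.7% of all genes. For the receptors, partners and TGF-beta genes, the ratios to the injured library are on the CPM scale only and were not recomputed under TMM. On that scale the median ratio of all genes was 0.804 against 3 w and 0.828 against 16 w. Tgfb1 was at 17.6 CPM at 3 d and 56.7 CPM at 78 w, while Tgfbi was at 444 and 137 CPM. Of the 4 genes listed as relatives (Tnr, Stab1, Stab2 and Vtn), none passed 3 CPM in stromal cells of any library. Vtn, vitronectin, was at 0.621 CPM at 16 w and 2.91 CPM at 78 w.

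The likeness of patterns was measured over 20 combinations of library and main cluster as Pearson's r of log2(CPM + 10) among 10957 genes. The points share libraries and depth, so r is a description. The genes most like Fn1 were Gstp1 (0.95), App (0.93) and 1600002K03Rik (0.92). Those most like Postn were Aprt, Mfap2 and Cacnb3 (each 0.94). Tnc was most like the ribosomal protein genes Rpl6 (0.88), Rps15a (0.85) and Rps27a (0.85). Tnn was most like Acan (0.89), Gdf10 (0.88) and Col27a1 (0.87), and Tnxb most like Lrp1 (0.95), Camk2n1 (0.93) and Man1a (0.92). Tgfbi was most like Zfp518b (0.90), Pgap1 (0.89) and Olfml2b (0.88), Fndc1 most like Olfml2b (0.93), Col14a1 (0.92) and Marcks (0.92), and Dpt most like Plin2 (0.93), Timp2 (0.92) and Lamc1 (0.92). Among the members themselves r was 0.83 for Tnc with Tnn, 0.82 for Tgfbi with Fndc1, 0.78 for Postn with Tgfbi and 0.75 for Fn1 with Tnxb, and it was -0.75 for Tnxb with Tnn and -0.74 for Tnxb with Tnc.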

How the data were processed

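Cells of 5 TMJ disc libraries, 1 per condition, were analysed from the UMI counts per gene and barcode that the authors deposited as raw whole-number counts, after tissue digestion and 10x Genomics 3′ library preparation. The submitters' processing notes name Cell Ranger 3.1 and the mouse build mm10, whereas the headers of the deposited files name Cell Ranger 4.0.0. Each library held 8467 to 15169 barcodes and 31585993 to 125427849 UMIs.

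Cells needed over 200 UMIs, of which no more than 30% could be mitochondrial, which left 8467 to 14959 per library. The libraries were integrated and clustered in Seurat 5.3.0 (R 4.3.3, Matrix 1.6.5) with 2000 variable features per library, 30 dimensions and a resolution of 0.2, and again at 0.5. The members and the listed genes, 48 in all, were left out of the anchors, the integration and the principal components. The members, the lists and the markers were chosen with earlier results of these data known, and the rule that scores markers (at least 3 markers at 2 times the 25th percentile of the other clusters) was set after clusters had been seen. Names are to be read as "-like". A cluster of cycling cells was left out of the stroma. Doublets were kept, since the automatic threshold of the Scrublet method marked 20.1% of cells at 3 d and 0 to 2 cells in each other library. An alternative left out those with the highest scores at 0.8% per 1000 cells.

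UMIs were summed per cell class and library and divided by all UMIs of those cells to give CPM. Intervals are exact Poisson for CPM, exact conditional binomial for ratios and Clopper-Pearson for shares, at 95%, in scipy 1.17.1 with numpy 2.4.6, pandas 2.3.3 and Python 3.11.15. Levels of 0 were given the limit of 3 counts. A ratio was read as past 2-fold among genes with at least 100 UMIs over both groups. Shares of cells were taken after thinning to 1000 UMIs, which left out 6 to 310 stromal cells per library. Alternatives used TMM factors from edgeR 4.0.16, other denominators, weights, filters and clusterings. The ratio step was tested on simulated data. The text names the 8 members, up to 4 genes of each list with the largest ratios in either direction, and the 3 genes most like each member in pattern. Positions come from GENCODE M21 (GRCm38), and promoters from RefSeq. Exons of Apol7d, 8030451A03Rik and Cyp21a2-ps overlap Fn1, Tnc and Tnxb on the opposite strand, and the 3′ kit keeps strand. Figures were drawn in matplotlib 3.10.9.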

Additional observations from a re-analysis of the deposited data

Results flagged for a closer look

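In 4 cases a member went one way in the stroma and the other way in the lining between the same libraries, with intervals on either side of 1. The members alone were searched for such cases, and the share of all genes that meet the same rule was not taken. The number of cases is therefore no trait of the members. The differences between the cell classes were not tested, since each class had 1 library per condition. Fndc1 at 16 w was 0.725 of its 3 w level in stromal cells and 2.07-fold of it in lining cells (38 and 89 UMIs), and at 78 w it was 1.15-fold of its 16 w level in stromal cells and 0.594 in lining cells. Tgfbi in the injured discs was 0.854 of its 3 w level in stromal cells and 3.26-fold of it in lining cells (31 and 72 UMIs). The stromal Tgfbi ratio turned above 1 under TMM scaling, and the lining ratio turned to 0.747 without integration. Fn1 in the injured discs was 1.66-fold of its 16 w level in stromal cells and 0.878 in lining cells, and the lining ratio turned to 1.06 under TMM scaling.

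In cells outside the stroma and the lining, a pair of members had levels above those of the stromal cells of the same library. Postn in mural cells was at 187 CPM at 3 w, 109.7 CPM at 16 w and 106 CPM at 78 w. Of mural cells thinned to 1000 UMIs, 37.1% held a Postn UMI at 3 d, 14.4% at 3 w, 8.68% at 16 w, 6.57% at 78 w and 14.3% in the injured discs (81.1%, 46.0%, 30.2%, 21.7% and 21.6% before thinning). Tgfbi in macrophages was at 505 CPM at 3 w, 668 CPM at 16 w, 717 CPM at 78 w and 356 CPM in the injured discs. Of thinned macrophages, 30.7%, 43.0%, 45.7%, 43.3% and 28.6% held a Tgfbi UMI in the order 3 d, 3 w, 16 w, 78 w and injured (78.9%, 92.6%, 86.6%, 90.1% and 50.7% before thinning).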

How the results depend on the processing

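Of 117 counts of members past 2-fold recomputed under an alternative, 101 stayed within 1.5 times the reported count and 16 moved. In stromal cells, the count at 16 w against 3 w was 2 in place of 1 without integration, the count at 78 w against 16 w was 2 without integration and 1 among thinned cells without a lining-marker UMI in place of 4, and the count in injured discs against 16 w was 5 in place of 3 with a limit of 1.5-fold. In lining cells, the count at 78 w against 3 d was 2 in place of 6 after thinning. The count in injured against 3 w lining was 2 without integration, 0 at a resolution of 0.5, 0 after thinning and 3 with no minimum of UMIs, in place of 1. Against 16 w it was 5 without integration, 0 at a resolution of 0.5, 0 with the mean of single-cell CPM, 0 after thinning, 3 with no minimum of UMIs and 2 with a limit of 1.5-fold, in place of 1. The count between lining and stroma was 7 in place of 4 with a limit of 1.5-fold. Thinning leaves fewer UMIs, so that fewer members reach the minimum. The cause of the other moves was not tested. Of 713 recomputed ratios, 3 turned direction after being past 2-fold: Tgfbi in injured lining was 0.747 of 3 w and 0.385 of 16 w without integration, and 0.873 of 16 w at a resolution of 0.5. The stromal ratios past 2-fold kept their direction under all 11 alternatives, but 5 of them came within 2-fold in at least 1: Fn1 at 3 w against 3 d passed 2-fold in 7 of the 11 (1.55 to 2.09), Fndc1 at 3 w against 3 d in 9 (0.463 to 0.537), Fndc1 at 78 w against 3 d in 9 (0.214 to 0.746), Tnc at 78 w against 16 w in 10 (1.70 to 3.26) and Postn at 78 w against 16 w in 10 (1.54 to 49.8, the upper end on 1 UMI at 16 w). Tnc and Tnxb in the lining at 78 w against 3 d each passed in 6 of 7 alternatives (0.277 to 0.524 and 1.92 to 2.58), and Tnn between lining and stroma in 7 of 8 (0.0430 to 0.729), the exception being thinning. Without integration the lining cluster held no cells at 3 d, so that alternative gave no lining value at that age. It held 1456 cells at 16 w and 2084 at 78 w, against 52 and 237 in the main clustering. Stromal cluster 2 then had 10059 of its 10065 cells from 3 d, and stromal cluster 4 had 6822 of 7186 from the injured discs. Ratios of this alternative therefore compare other sets of cells than the main ones. The alternatives with the cycling cluster in the stroma, without lining-marker UMIs, and the marking of doublets by an expected rate were chosen after seeing the data. No paired analysis was possible because each condition had 1 library. The lining values are limited by 52 to 237 cells per library, and Tnn had at most 14 UMIs there in any library.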
